A study of Mus musculus with 12 samples.

Results

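The 8 genes described here are the potassium channel genes Kcnk12, Kcnk13, Kcnk6, Kcnj2, Kcnma1, Kcnn4 and Kcna3, together with Kcnq1ot1, a long non-coding RNA named for the channel gene it overlaps. They were chosen by symbol from the 48526 gene IDs of the count table, after the IDs had been paired with symbols in GENCODE M21, and all 8 were found. Their RNA was counted in microglia, the resident macrophages of the central nervous system, sorted by flow cytometry from the spinal cord of Biozzi ABH mice. The 4 groups were control mice and mice with chronic-relapsing experimental autoimmune encephalomyelitis (crEAE), an induced autoimmune disease of brain and spinal cord, taken in the acute phase, in remission or in the chronic phase. Each group held 3 mice, with 1 library per mouse, and no genotype other than the strain is named. The age of the mice, the disease induction and any treatment of the control mice are not given in the sources used here. The sorted cells carried CD11b, had an intermediate level of CD45 and lacked Ly-6C. These are bulk measurements of all cells in that gate, so fewer cells of a type and less RNA per cell cannot be told apart.

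Potassium channels let potassium leave the cell along its gradient, and by doing so they set the resting membrane potential and the electrical force that draws calcium in. In microglia the tandem-pore channel THIK-1, the product of Kcnk13, carries the resting potassium current, and work on brain tissue has tied it to process surveillance and to the release of interleukin-1β. The inward rectifier Kir2.1, from Kcnj2, was among the first channels recorded in cultured microglia. The voltage-gated channel Kv1.3, from Kcna3, and the calcium-activated channel KCa3.1, from Kcnn4, are known from activated microglia and from T lymphocytes. Loss of cell potassium is also a trigger of the NLRP3 inflammasome, for which the tandem-pore channel TWIK2, from Kcnk6, has been described as an efflux route in macrophages.

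The promoter windows of 4 members are shown because these genes followed different courses over the phases: Kcnk12, which stayed low after the acute phase, Kcnk13 and Kcnj2, which fell and returned, and Kcnn4, which rose in the acute phase. Sequences are RefSeq windows on GRCm38.p6, from 250 bases before to 50 bases after the gene start, written 5′ to 3′ on the strand of the gene. Capitals mark GAGGAA or its reverse complement TTCCTC, the core of the element bound by the myeloid factor PU.1, and CACGTG, the E-box read by MiT/TFE factors. The windows lie at chr17:87797945-87798244 on the minus strand for Kcnk12, chr12:99964249-99964548 on the plus strand for Kcnk13, chr11:111065914-111066213 on the plus strand for Kcnj2 and chr7:24370013-24370312 on the plus strand for Kcnn4.
Kcnk12: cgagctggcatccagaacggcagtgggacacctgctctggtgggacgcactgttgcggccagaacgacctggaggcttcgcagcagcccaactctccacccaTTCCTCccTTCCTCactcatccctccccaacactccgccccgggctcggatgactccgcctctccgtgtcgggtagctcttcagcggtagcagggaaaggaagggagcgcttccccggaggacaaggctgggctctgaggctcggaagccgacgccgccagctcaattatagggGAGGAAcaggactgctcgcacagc
Kcnk13: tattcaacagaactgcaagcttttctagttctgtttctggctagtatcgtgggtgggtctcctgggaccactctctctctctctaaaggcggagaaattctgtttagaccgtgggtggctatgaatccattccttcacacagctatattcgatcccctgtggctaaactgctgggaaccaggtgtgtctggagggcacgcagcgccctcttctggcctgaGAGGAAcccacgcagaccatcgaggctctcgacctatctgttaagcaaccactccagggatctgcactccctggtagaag
Kcnj2: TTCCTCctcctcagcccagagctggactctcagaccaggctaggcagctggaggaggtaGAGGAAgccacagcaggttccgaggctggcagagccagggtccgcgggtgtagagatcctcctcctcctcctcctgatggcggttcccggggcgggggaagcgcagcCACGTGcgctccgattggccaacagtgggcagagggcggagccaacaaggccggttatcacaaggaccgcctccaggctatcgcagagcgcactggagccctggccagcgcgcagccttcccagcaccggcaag
Kcnn4: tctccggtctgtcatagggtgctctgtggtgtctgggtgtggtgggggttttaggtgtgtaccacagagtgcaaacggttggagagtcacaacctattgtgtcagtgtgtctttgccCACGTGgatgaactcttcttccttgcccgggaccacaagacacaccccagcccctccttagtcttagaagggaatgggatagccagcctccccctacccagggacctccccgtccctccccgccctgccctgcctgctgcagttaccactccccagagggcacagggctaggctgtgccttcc
Of the 8 members, 7 had a window, and Kcnk6 was not among them. GAGGAA on either strand was present in the windows of Kcnk12, Kcnk13, Kcna3, Kcnj2 and Kcnq1ot1, at 3, 1, 2, 2 and 3 places, and in 28.3% of the 32851 windows of all genes. It was in neither the Kcnn4 nor the Kcnma1 window. CACGTG was present in the windows of Kcnj2 and Kcnn4 and in 7.15% of all windows. The longer PU.1 element GAGGAAGT, which contains GAGGAA, was searched on both strands as well, along with TGANTCA for AP-1, GAAA followed after any 2 bases by GAAA for interferon regulatory factors, GTCTAGAC for SMAD, TTGCGCAA for C/EBP, GGGNNTTCC for NF-kB and CTA followed after any 4 bases by TAG for MEF2. These letters were in none of the 7 windows and in 3.2, 7.81, 3.44, 0.213, 0.183, 5.82 and 3.69% of all windows in that order. These matches describe letters and not bound sites.

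Total counts per library ranged from 3992885 to 5712376. The 6 most abundant features took 48.3 to 64.1% of them, so that 1266782 to 2496096 counts per library carried the information after the mitochondrial genes were set aside as well. Levels are CPM, counts scaled to library size, after trimmed-mean-of-M (TMM) adjustment. A gene counted as changed at a Benjamini-Hochberg adjusted p under 0.05 in edgeR's quasi-likelihood test over 12545 genes, and every adjusted p below comes from that test unless another tool is named. Fold changes are log2 ± SE from the model, and an error after a level is the SD over a group's 3 mice. The label was checked against microglial markers. The 12 homeostatic markers, among them P2ry12, Tmem119 and Cx3cr1, had summed levels of 9728 to 10874 CPM in control libraries, against 2380 to 3667 CPM in acute, 7799 to 8020 CPM in remission and 7460 to 7659 CPM in chronic libraries, and all 12 were lower in acute than in control mice. The 8 monocyte markers summed to 5.97 to 39.3 CPM in control libraries, with Ly6c2, Chil3 and S100a4 at 0, and to 1409 to 2079 CPM in acute libraries. Ly6c2, a gene of the antigen that the sort excluded, was at 64.6 ± 19 CPM in acute mice. The 10 neutrophil markers summed to at most 0.647 CPM in control libraries, with 7 at 0, and to 128 to 427 CPM in acute libraries. T and NK cell markers, 8 genes, summed to 0 to 0.526 CPM in control libraries, with 6 at 0, and to 52.2 to 89.0 CPM in acute libraries. The 4 border macrophage markers summed to 0.711 to 0.876 CPM in control and 65.5 to 112 CPM in acute libraries, with Lyve1 at 0 in both groups. Ptprc, which encodes CD45, was at 422 ± 36.1 CPM in control and 424 ± 23.1 CPM in acute mice. Itgam, which encodes CD11b, was at 132 ± 14.7 CPM in control and 86.0 ± 21.1 CPM in acute mice. It was at 100 ± 18.3 CPM in remission and 175 ± 48.6 CPM in chronic mice. Remission replicate 1 stood apart from its group, with oligodendrocyte markers at 598 CPM against 54.3 and 108 CPM in the other remission libraries and astrocyte markers at 118 CPM against 14.5 and 20.7 CPM. Its neutrophil markers summed to 57.4 CPM against 2.30 and 1.06 CPM in those libraries. Its monocyte markers summed to 15.3 against 4.02 and 4.52 CPM, and its T and NK cell markers to 3.14 against 0.383 and 0.531 CPM.

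All 8 members passed the filter on low counts and were tested in each of 6 comparisons between groups. In acute against control mice, 7 of 8 changed, 5 lower and 2 higher, where 43.7% of all genes tested changed, 20% lower and 23.7% higher. Kcnk12, Kcnma1, Kcnj2, Kcnk13 and Kcnk6 fell, and Kcnn4 and Kcna3 rose. In remission against control mice 1 member, Kcnk12, was lower and 0 were higher, against 3.25% and 6.06% of all genes, or 9.31% in either direction. In chronic against control mice 3 members differed, where 14.7% of all genes did. Kcnk12 and Kcnma1 were lower (5.17% of all genes) and Kcnk6 was higher (9.57%). Between remission and acute mice all 8 members changed, 6 higher and 2 lower in remission, against a background of 36.9% (17.6% higher, 19.4% lower). Between chronic and acute mice 6 changed, 5 higher and 1 lower in the chronic phase, against 28.8% (13.3% higher, 15.5% lower). Between chronic and remission mice edgeR called 0 of 8, against 1.2% of all genes (0.941% higher, 0.263% lower). In that comparison 4 members had an unadjusted p under 0.05, DESeq2 called 1 member, Kcna3, and limma-voom called 0. The libraries of the compared groups did not overlap for 6 of 8 members in acute against control mice (56.7% of all genes), 3 in remission against control (28.1%), 3 in chronic against control (32.4%), 8 in remission against acute (48.2%), 6 in chronic against acute (40.1%) and 3 in chronic against remission mice (17.8%). The comparisons share groups of mice, so their counts are not independent of each other. The members were chosen with earlier results of these data known, so these counts do not measure an excess over all genes. The median log2 fold change of the members was -0.71 in acute against control mice, where the median of all genes was 0.02, and it was 0.16 in remission and -0.09 in chronic mice, both against control.

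**Figure D1:**
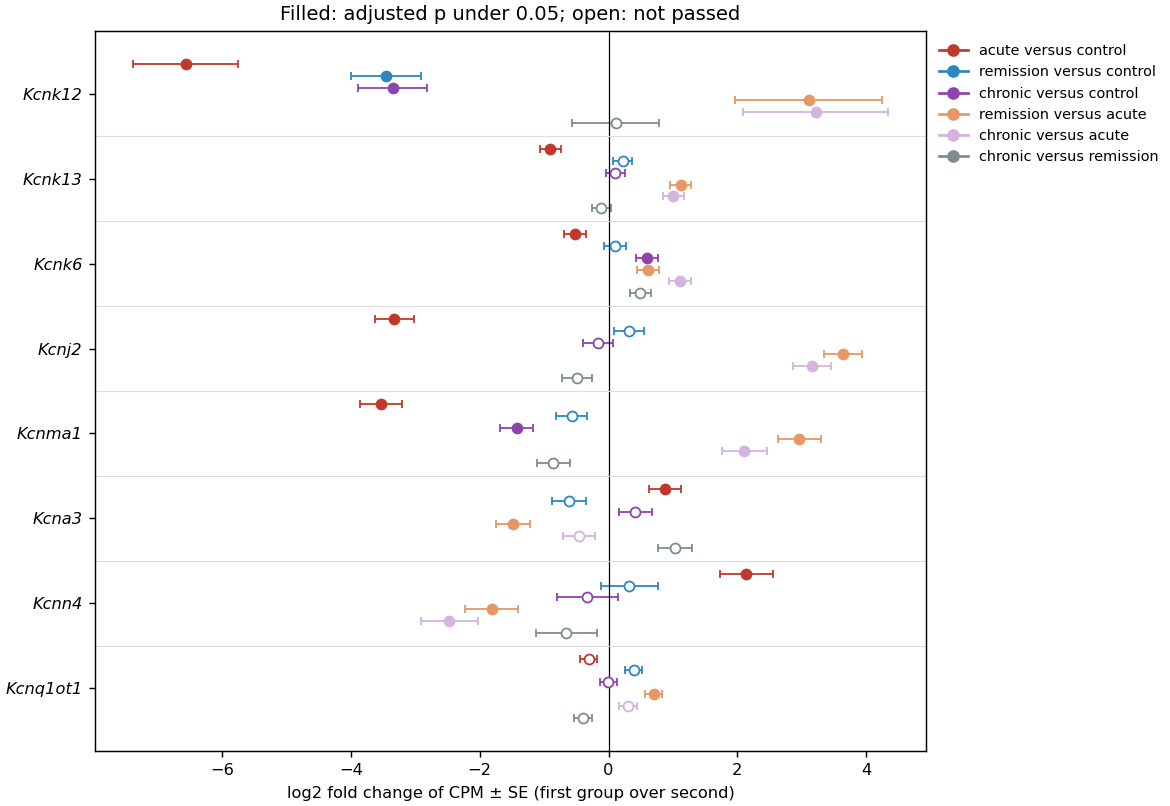
Log2 fold change of each of the 8 members (rows) in each of the 6 comparisons (colours), the first-named group over the second, with bars of 1 SE from the edgeR model, filled where the adjusted p is under 0.05. Kcnk12 lies left of 0 in all 3 comparisons with control, at -6.57, -3.46 and -3.35, while Kcnj2 is at -3.32 in acute mice and at 0.32 and -0.17 in remission and chronic mice.

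Of the 3 tandem-pore genes, Kcnk12 showed the deepest and longest decrease. Kcnk12 (ENSMUSG00000050138, chromosome 17, 87745801 to 87797994, minus strand) encodes THIK-2, the close relative of THIK-1. In the control libraries it was at 10.5, 12.8 and 10.1 CPM. The acute libraries held 0, 0 and 0.296 CPM, the last of which was a single count. The remission libraries were at 0.738, 0.765 and 1.59 CPM and the chronic libraries at 0, 1.62 and 1.53 CPM. Every control library lay above every library of the other 3 groups. The counts pooled over each group were 194 in control and 1 in acute mice, a ratio per depth of 123 with an exact 95% counting interval of 21.8 to 4870 that covers counting error only. The decrease passed in acute mice at a log2 fold change of -6.57 ± 0.82 (adjusted p 1.76e-06), in remission at -3.46 ± 0.54 (adjusted p 0.00019) and in chronic mice at -3.35 ± 0.54 (adjusted p 0.000161), each against control. Without acute replicate 3, which holds the single acute count, the fitted acute value was -8.76. The fitted level was 11-fold below control in remission and 10.2-fold below it in the chronic phase.

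A partial return of Kcnk12 after the acute phase rested on few counts. Pooled counts were 14 in remission and 15 in chronic mice. The ratio of remission to acute mice was 10.7 with a counting interval of 1.62 to 451, and it passed at an adjusted p of 0.0375. That of chronic to acute mice was 11.9, with an interval of 1.83 to 500 and an adjusted p of 0.037. The first call ended without acute replicate 1, acute replicate 2 or remission replicate 3, and the second without control replicate 2, acute replicate 1, acute replicate 2, chronic replicate 2 or chronic replicate 3. Both ended in limma-voom, in the fit to the 2 groups compared alone and with the title number as a block. Remission and chronic mice did not separate (log2 fold change 0.11 ± 0.68, adjusted p 0.958), with overlapping libraries and wide error.

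Kcnk13, the gene of THIK-1, fell 1.87-fold in the acute phase and was higher again in remission and in the chronic phase. Kcnk13 (ENSMUSG00000045404) spans 99964499 to 100062682 on the plus strand of chromosome 12. Its levels were 30.0, 36.6 and 30.2 CPM in control libraries and 16.1, 17.1 and 18.7 CPM in acute libraries. Remission libraries held 43.4, 36.7 and 32.1 CPM, and chronic libraries 36.3, 34.9 and 32.9 CPM. The 3 acute libraries lay below all 9 others. The log2 fold change of acute against control mice was -0.90 ± 0.16 (adjusted p 0.000127). Remission stood above acute mice by 1.12 ± 0.16 (adjusted p 1.87e-05) and the chronic phase by 1.01 ± 0.16 (adjusted p 9.11e-05). Against control mice neither remission (0.22 ± 0.15, adjusted p 0.44) nor the chronic phase (0.11 ± 0.15, adjusted p 0.724) passed, and the libraries overlapped.

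Kcnk6, the gene of TWIK2, moved less and had its highest group mean in the chronic phase. It lies on chromosome 7 from 29221926 to 29232515 on the minus strand (ENSMUSG00000046410). Control libraries were at 118, 116 and 134 CPM, acute libraries at 63.6, 102 and 92.8 CPM, remission libraries at 108, 152 and 133 CPM and chronic libraries at 219, 152 and 185 CPM. All acute libraries lay below and all chronic libraries above the control libraries, while remission libraries lay on both sides. The decrease in acute mice was -0.52 ± 0.17 on the log2 scale (adjusted p 0.0212), and the call was lost when control replicate 3 (adjusted p 0.0824) or acute replicate 1 (adjusted p 0.106) was left out. The increase in chronic over control mice was 0.59 ± 0.17 (adjusted p 0.0224). It ended without control replicate 1, control replicate 2, chronic replicate 1 or chronic replicate 3, with library totals alone (adjusted p 0.362) and with the title number as a block (adjusted p 0.0513). Remission exceeded acute mice by 0.61 ± 0.17 (adjusted p 0.00942, or 0.0528 without remission replicate 2). The rise from acute to chronic mice, 1.11 ± 0.17 (adjusted p 8.78e-05), was called in all 20 alternatives tried. Chronic and remission libraries overlapped, and their difference of 0.50 ± 0.17 did not pass (adjusted p 0.157).

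**Figure D2:**
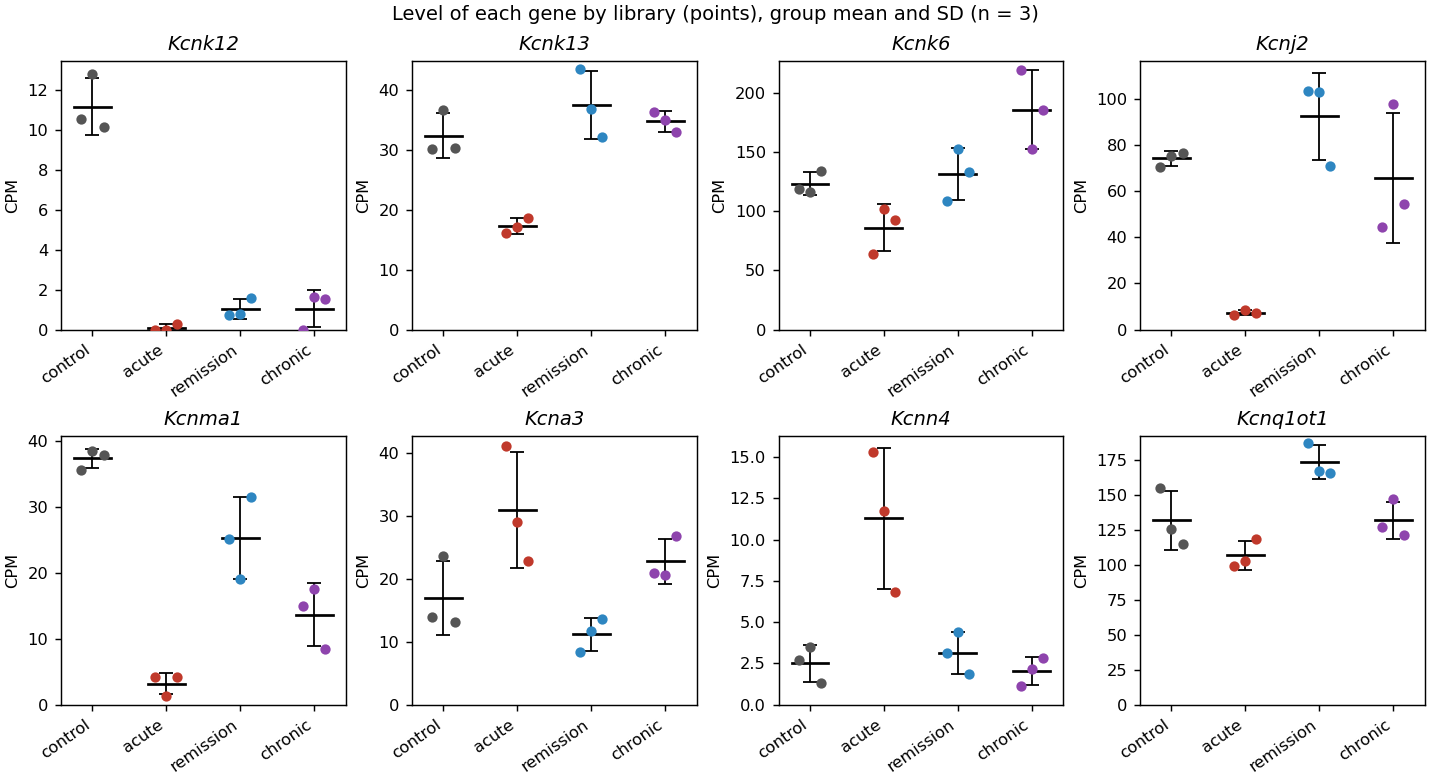
Level of each of the 8 members in every library, as CPM after TMM scaling on a linear axis that starts at 0 and differs between panels, with 1 point per mouse and the group mean and SD in black. Kcnk12 is at 10.1 to 12.8 CPM in control libraries and at most 1.62 CPM elsewhere, and Kcnj2 and Kcnma1 drop in the acute libraries and rise again.

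The inward rectifier gene Kcnj2 fell 10.02-fold in the acute phase and was high again in remission. Kcnj2 (ENSMUSG00000041695, chromosome 11, 111066164 to 111076821, plus strand) encodes Kir2.1, which holds the membrane near the potassium equilibrium potential. It was at 70.6, 75.4 and 76.6 CPM in control libraries. In acute libraries it was at 6.49, 8.53 and 7.11 CPM, in remission libraries at 103, 103 and 70.7 CPM and in chronic libraries at 44.5, 97.6 and 54.6 CPM. The acute libraries lay far below all others, and the other groups overlapped each other. The change from control to acute mice was -3.32 ± 0.30 (adjusted p 6.41e-07), and the change from acute mice to remission was 3.65 ± 0.30 (adjusted p 5.39e-07). The chronic phase stood above acute mice by 3.16 ± 0.30 (adjusted p 3.37e-06). Neither remission (0.32 ± 0.23, adjusted p 0.476) nor the chronic phase (-0.17 ± 0.23, adjusted p 0.719) passed against control. The chronic libraries spread widely, and chronic replicate 2 decided the reading of the group. Without it the chronic phase was below control by -0.59 (adjusted p 0.0261) and below remission by -0.92 (adjusted p 0.00789), which in all 12 libraries was -0.49 ± 0.23 (adjusted p 0.331).

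Both calcium-activated channel genes changed, in opposite directions. Kcnma1 (ENSMUSG00000063142, chromosome 14, 23289431 to 24014491, minus strand) encodes the pore of the large-conductance BK channel, which opens with calcium and voltage. Its control libraries held 35.7, 38.6 and 38.0 CPM and its acute libraries 4.15, 1.33 and 4.15 CPM. In remission the levels were 25.1, 19.1 and 31.6 CPM, and in the chronic phase 15, 17.6 and 8.42 CPM. The libraries of the 4 groups did not overlap at all, with control above remission, remission above chronic and chronic above acute mice. The acute decrease was -3.54 ± 0.32 (adjusted p 7.95e-08), or 11.6-fold, and the chronic decrease -1.43 ± 0.26 (adjusted p 0.000682), or 2.69-fold, both against control. From acute mice the level rose by 2.97 ± 0.33 in remission (adjusted p 1.9e-06) and by 2.11 ± 0.35 in the chronic phase (adjusted p 0.000168). Remission did not pass against control (-0.57 ± 0.24, adjusted p 0.167), nor the chronic phase against remission (-0.85 ± 0.26, adjusted p 0.112). The first was called with the 2 groups alone (adjusted p 0.0197), library totals alone (adjusted p 0.0261) and no filter (adjusted p 0.0351), and the second with no filter (adjusted p 0.00277). The annotated exons of Kcnma1 share 5.98% of their bases with a gene on the opposite strand, and the library kit does not keep the strand.

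Among the members, Kcnn4 had the largest increase from control to acute mice. Kcnn4 (ENSMUSG00000054342, chromosome 7, 24370263 to 24386690, plus strand) encodes KCa3.1, a calcium-activated channel of intermediate conductance. Control libraries were at 2.70, 3.50 and 1.29 CPM and acute libraries at 15.3, 11.7 and 6.82 CPM. Remission libraries were at 3.14, 4.40 and 1.86 CPM and chronic libraries at 1.14, 2.16 and 2.81 CPM. All 3 acute libraries exceeded the other 9, which overlapped. The increase from control to acute mice was 2.14 ± 0.42 (adjusted p 0.000287), or 4.41-fold. Remission fell back by -1.82 ± 0.41 (adjusted p 0.00168) and the chronic phase by -2.47 ± 0.44 (adjusted p 0.000246), and neither passed against control (adjusted p 0.747 and 0.732).

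The voltage-gated gene Kcna3 was higher in the acute phase than in remission, with the chronic phase between. Kcna3 (ENSMUSG00000047959), the gene of Kv1.3, is annotated as a single exon on the plus strand of chromosome 3 from 107036169 to 107038070. The control libraries held 13.9, 23.7 and 13.2 CPM, the acute libraries 41.0, 29.0 and 22.8 CPM, the remission libraries 8.31, 11.7 and 13.5 CPM and the chronic libraries 20.9, 20.5 and 26.8 CPM. Acute and control libraries overlapped, because control replicate 2 exceeded acute replicate 3. The acute increase passed at 0.87 ± 0.25 (adjusted p 0.00807), but it was 0.60 (adjusted p 0.0742) without acute replicate 1 and 0.33 (adjusted p 0.247) with library totals alone. The fall from acute mice to remission, -1.49 ± 0.26 (adjusted p 0.000214), was called in all 20 alternatives. The chronic libraries all lay above the remission libraries, at 1.03 ± 0.26, which did not pass (adjusted p 0.059). DESeq2 gave an adjusted p of 0.0212 there. That difference was also called with no filter (adjusted p 0.000139) and without control replicate 2 (adjusted p 0.048) or acute replicate 1 (adjusted p 0.044). Neither remission (-0.62 ± 0.27, adjusted p 0.174) nor the chronic phase (0.42 ± 0.25, adjusted p 0.315) passed against control. The remission difference was called with library totals alone (adjusted p 0.0257) and with no filter (adjusted p 0.0494).

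Marker sums of other cells were compared with Kcna3 and Kcnn4 within the acute group. Across acute replicates 1, 2 and 3, T and NK cell markers summed to 89.0, 80.2 and 52.2 CPM, monocyte markers to 2079, 1727 and 1409 CPM and homeostatic markers to 2380, 2764 and 3667 CPM. Kcna3 and Kcnn4 had the order of the T and NK cell and monocyte sums, highest in replicate 1 and lowest in replicate 3, and homeostatic markers had the opposite order. The neutrophil sum (192, 427 and 128 CPM), the border macrophage sum (82.2, 112 and 65.5 CPM), the oligodendrocyte sum (458, 330 and 379 CPM) and the astrocyte sum (162, 136 and 175 CPM) had neither order. Nor did the endothelial cell and pericyte sum (16.3, 20.8 and 16.6 CPM) or the B cell sum (0.259, 1.07 and 0.296 CPM). Of the 5 members that fell in acute mice, Kcnk13 (16.1, 17.1 and 18.7 CPM) had the homeostatic order. Kcnj2 (6.49, 8.53 and 7.11 CPM), Kcnk6 (63.6, 102 and 92.8 CPM) and Kcnma1 (4.15, 1.33 and 4.15 CPM) had neither order. Kcnk12 held a single acute count. A match of order over 3 libraries can easily arise by chance. All 5 were lower in the acute group, as were all 12 homeostatic markers, whose median change was -2.62 on the log2 scale. The part of other cell types in these differences was not tested.

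Kcnq1ot1 is not a channel. It is the long non-coding RNA transcribed antisense to Kcnq1 from the paternal allele, and it keeps neighbouring imprinted genes silent on that chromosome. It spans 143203458 to 143296549 on the minus strand of chromosome 7 (ENSMUSG00000101609) as one unspliced exon of 93092 bases. Levels were 155, 125 and 114 CPM in control, 98.8, 103 and 119 CPM in acute, 187, 167 and 166 CPM in remission and 127, 147 and 121 CPM in chronic libraries. Remission libraries exceeded all others. The step from acute mice to remission was 0.70 ± 0.13 (adjusted p 0.000371), and it was the single call for this RNA. The difference of remission from control, 0.40 ± 0.13, did not pass in edgeR (adjusted p 0.0687), although DESeq2, limma-voom, the fit to those 2 groups and the fit without control replicate 1 called it. The acute decrease of -0.31 ± 0.13 had an adjusted p of 0.0719, and it became -0.88 (adjusted p 0.000143) with library totals alone. It was also called with no filter (adjusted p 0.0453), with the 2 groups alone (adjusted p 0.0414) and without control replicate 3 (adjusted p 0.041) or acute replicate 3 (adjusted p 0.0359). Chronic and control mice were at 132 ± 13.5 and 132 ± 21 CPM. Kcnq1 itself had 0 counts in all 12 libraries, which allows a level of up to 0.053 CPM over the 12 libraries together.

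For a comparison between genes, levels were divided by the annotated exon length and are given as CPM per kb. That length joins the exons of all annotated transcripts of a gene, with 16976 bases for Kcnma1, 5115 for Kcnn4 and 1902 for Kcna3. The order of genes, the sums and the shares below depend on it. In control mice Kcnk6 led at 29.6 ± 2.36 CPM per kb, followed by Kcnj2 at 13.6 ± 0.587, Kcnk13 at 10.4 ± 1.21, Kcna3 at 8.90 ± 3.07, Kcnk12 at 5.66 ± 0.726, Kcnma1 at 2.20 ± 0.0888 and Kcnn4 at 0.489 ± 0.219. The mean ± SD intervals of Kcnk13 and Kcna3 overlapped, and so did those of Kcna3 and Kcnk12. Summed over the 7 channel genes, control mice stood at 70.9 ± 4.52 CPM per kb, acute mice at 46.3 ± 2.88, mice in remission at 69.1 ± 5.95 and chronic mice at 81.5 ± 2.92. By group means Kcnk6 made up the largest share, with 41.9 ± 4.43% of the control sum and 44.7 ± 10.2% of the acute sum, then 45.6 ± 5.23% in remission and 54.6 ± 7.93% in the chronic phase. In acute replicate 1 Kcna3 stood above it, at 21.5 against 15.3 CPM per kb, and the acute intervals of both shares overlapped. The make-up of the rest differed most in the acute phase. Kcna3 went from 12.4 ± 3.56% to 35 ± 9.97% of the sum and Kcnn4 from 0.687 ± 0.290% to 4.73 ± 1.69%, while Kcnj2 went from 19.3 ± 0.817% to 2.92 ± 0.321% and Kcnk12 from 7.97 ± 0.661% to 0.115 ± 0.200%. These shares are a description with no test, and they move together because they sum to the whole.

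**Figure D3:**
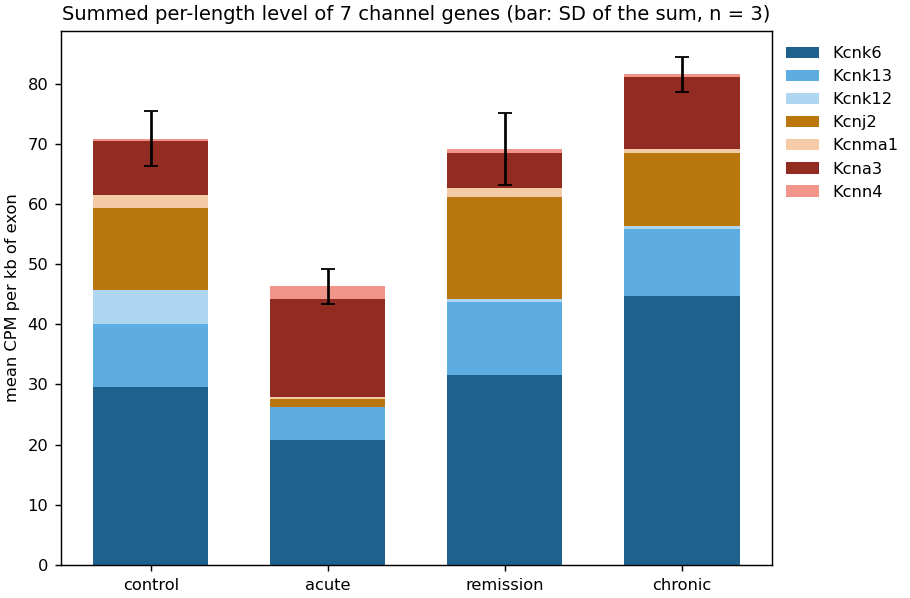
Stacked mean levels of the 7 channel genes in each group, in CPM per kb of annotated exon, without Kcnq1ot1, with a bar of 1 SD of the sum over 3 mice. The stack is 46.3 in acute mice against 70.9 in control mice, and in acute mice Kcna3 takes 35% of it, Kcnj2 2.92% and Kcnk12 0.115%.

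The profiles most like each member over the 12 libraries were ranked by the root mean square difference of centred log2(CPM + 0.5), among 6419 tested protein-coding genes with a mean of at least 10 CPM. Nearest to Kcnk6 were Ctbs at 0.188, Limk1 at 0.207 and C1qb at 0.209, and nearest to Kcnk13 were Plxnb2 at 0.145, Tgfbr2 at 0.149 and Nagpa at 0.153. For Kcnk12 they were Klhdc8b at 0.386, Itga9 at 0.640 and Dennd2c at 0.734. Itga9, an integrin subunit, went from 86.2 ± 3.42 CPM in control mice to 2.92 ± 0.932 CPM in the acute phase, and then stood at 17.3 ± 4.30 CPM in remission and 14.6 ± 4.95 CPM in the chronic phase. Kcnj2 was nearest to Tmem273 at 0.384, Gpr153 at 0.399 and Atp8a2 at 0.403. Kcnma1 was nearest to the homeostatic marker Gpr34 at 0.385, then to the iron exporter gene Slc40a1 at 0.440 and the monocarboxylate transporter gene Slc16a7 at 0.464. Beside Kcna3 stood Unc119b at 0.284, Prmt1 at 0.290 and Tmem165 at 0.306, and beside Kcnn4 stood Lmo4 at 0.395, Mxd1 at 0.433 and Diaph1 at 0.434. Kcnq1ot1 had the closest neighbours, Slf2 at 0.113, Paxbp1 at 0.122 and Akap11 at 0.135. These distances are a description over libraries that share 4 groups.

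The annotation holds 87 other protein-coding genes whose symbol starts with Kcn, and 14 of them had enough counts to be tested. No further tandem-pore gene was among the 14. In acute against control mice 7 were higher and 3 lower, where 23.7% of all genes were higher and 20% lower. Kcnd1 and Kcnd3, pore genes of transient A-type channels, fell from 48.7 ± 11.1 to 12.5 ± 6.75 CPM (adjusted p 0.000212) and from 10.8 ± 2.03 to 0.793 ± 0.886 CPM (adjusted p 4.66e-06). Kcnrg, a regulator of voltage-gated channels, fell from 8.22 ± 1.31 to 0.346 ± 0.599 CPM (adjusted p 4.29e-05). Among those that rose, the inward rectifier gene Kcnj10 went from 6.62 ± 0.632 to 40.9 ± 6.81 CPM (adjusted p 2.19e-08) and the beta subunit gene Kcnab2 from 2.24 ± 0.869 to 24.3 ± 3.08 CPM (adjusted p 1.63e-07). Kcna1 reached 10.7 ± 6.52 CPM from 0.354 ± 0.356 (adjusted p 0.0104). Kcna6, Kcnq3 and Kcnt1, channel genes studied mostly in neurons, were among the other 4 and are named here after their values were seen. Of the 20 alternatives, 3 ended the call of Kcna6, 6 that of Kcnq3 and 4 that of Kcnt1. The number that rose was 3 without control replicate 3 and 4 without acute replicate 3. Oligodendrocyte markers summed to 330 to 458 CPM in acute against 62.2 to 79.7 CPM in control libraries, and astrocyte markers to 136 to 175 against 22.8 to 27.7 CPM, while neuron markers summed to 4.74 to 7 CPM in acute libraries, against 5.41 to 8.85 CPM in the controls. The part of glial cells in these increases was not tested.

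After the acute phase these genes separated again. Kcnd3 stayed below control at 2.23 ± 0.452 CPM in remission (adjusted p 0.000868) and 1.01 ± 0.303 CPM in the chronic phase (adjusted p 2.61e-05), and Kcnj10 stayed above it at 28.6 ± 9.35 CPM (adjusted p 3.78e-06) and 21.3 ± 4.21 CPM (adjusted p 4.61e-05). The Kcnj10 increase in remission was still called without remission replicate 1, at a log2 fold change of 1.82. Kcnq3 was also higher than control in both later phases, at 6.14 ± 4.27 CPM in remission (adjusted p 0.00242) and 3.7 ± 2.68 CPM in the chronic phase (adjusted p 0.0198). Without remission replicate 1 its log2 fold change in remission was 2.17 (adjusted p 0.0291) and not 2.92, and its chronic call was lost in limma-voom, without any 1 of the control libraries and without chronic replicate 1. In remission against control mice this made 2 higher and 1 lower of 14, where 6.06% and 3.25% of all genes were. It made 5 higher without remission replicate 2 or 2 lower without remission replicate 3. In chronic against control mice it made 2 higher and, with Kcnrg at 2.61 ± 0.52 CPM (adjusted p 0.031), 2 lower, where 9.57% and 5.17% of all genes were. The number higher was 1 without control replicate 1, control replicate 3 or chronic replicate 1. The number lower was 1 without control replicate 2 or 3 or any of the chronic libraries, and the Kcnrg call was lost without any 1 of the 6 libraries compared. Kcnd1 rose from 12.5 ± 6.75 CPM in acute mice to 34.2 ± 4.08 CPM in remission (adjusted p 0.00315) and 27 ± 4.08 CPM in the chronic phase (adjusted p 0.0213). The chronic call was lost without chronic replicate 2 (adjusted p 0.0722) or 3 (adjusted p 0.0566) and with the title number as a block (adjusted p 0.0699). Both later means lay below the control mean of 48.7 ± 11.1 CPM, and neither difference from control passed (adjusted p 0.33 and 0.0679). Chronic libraries were at 22.2 to 29.5 CPM and control libraries at 36.7 to 58.5 CPM. Remission replicate 1 held 8.12 CPM of Kcna1 against 0.383 and 0.531 CPM in the other remission libraries. Among the remission libraries it also had the most oligodendrocyte and astrocyte marker RNA. Between remission and acute mice 2 of the 14 genes, Kcnd1 and Kcnrg, were higher, and 1, Kcnab2, was lower. Of all genes 17.6% were higher and 19.4% lower. Without remission replicate 1 the number lower was 6. Between chronic and acute mice 2 of the 14 were higher and 7 lower, against 13.3% and 15.5% of all genes. Leaving out a library gave 1 to 2 higher and 3 to 7 lower there.

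**Figure D4:**
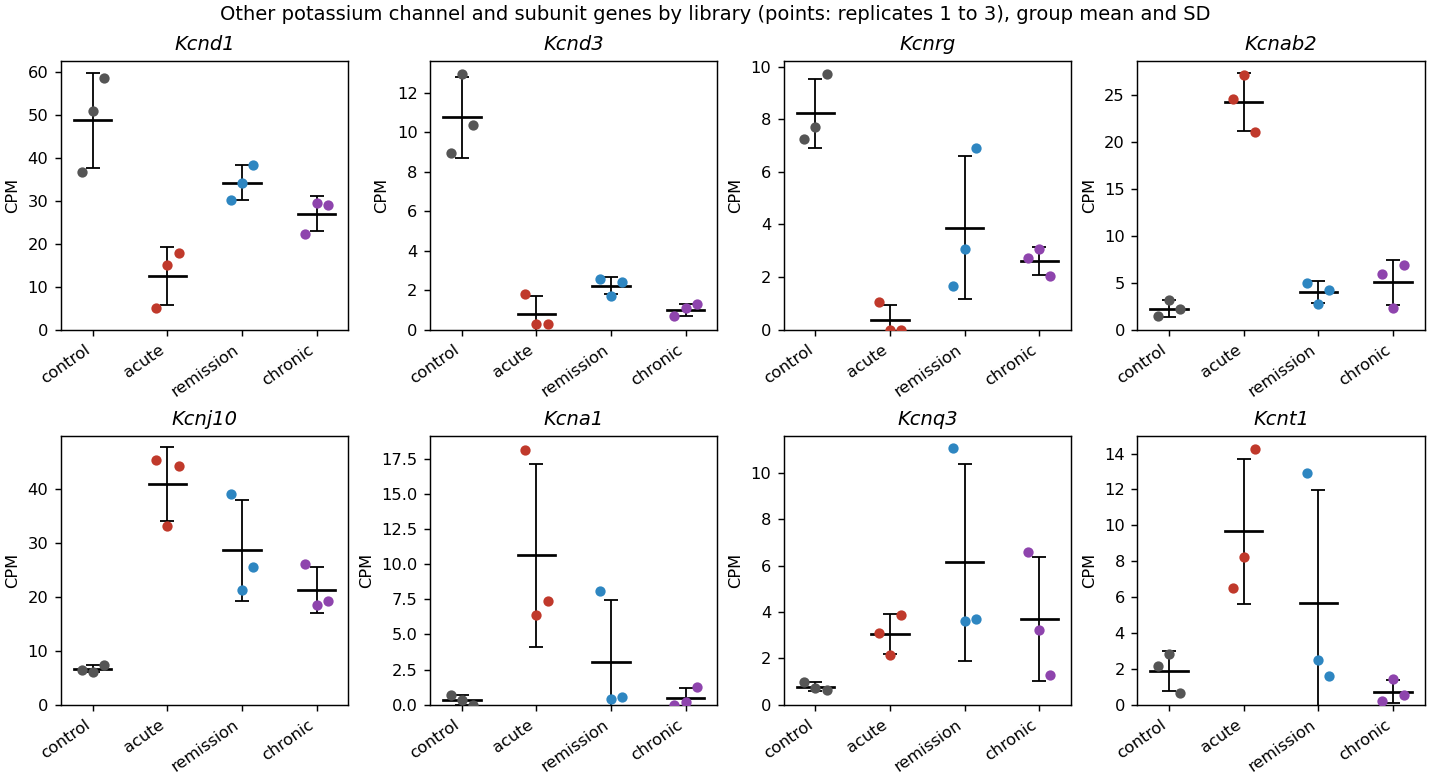
Levels of 8 of the 14 other Kcn genes tested, picked for display after their values were seen, as CPM after TMM scaling on linear axes, with 1 point per library and the group mean and SD in black. All acute libraries lie below the control libraries for Kcnd1, Kcnd3 and Kcnrg and above them for Kcnj10 and Kcnab2, and the highest remission point of Kcna1, 8.12 CPM, is replicate 1.

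Other potassium and ion transport genes were followed as context. Of 10 genes for potassium pumps and cotransporters, 4 were higher and 2 lower in acute than in control mice, where 23.7% and 20% of all genes were. The potassium-chloride cotransporter gene Slc12a7 rose from 20.8 ± 4.85 to 45.6 ± 6.57 CPM (adjusted p 0.000115). In remission 1 gene of this list was higher than in control mice and 0 were lower, against 6.06% and 3.25% of all genes. The number higher was 4 without remission replicate 2, and 2 without control replicate 1, acute replicate 1, remission replicate 1, chronic replicate 1 or chronic replicate 3. Leaving out a library gave 0 to 1 lower. In chronic against control mice 4 were higher and 1 lower, against 9.57% and 5.17% of all genes. There, leaving out a library gave 3 to 4 higher and 0 to 2 lower, and library totals alone gave 2 and 2.

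Of 10 genes for potassium efflux and the NLRP3 inflammasome, 2 rose and 2 fell in acute mice, a share near the 23.7% and 20% of all genes that did. The interleukin gene Il1b rose from 3.34 ± 0.893 to 74.4 ± 24 CPM and the pannexin gene Panx1 from 2.1 ± 0.221 to 8.26 ± 0.556 CPM (adjusted p 0.000252). The sensor gene Nlrp3 fell from 88.9 ± 13.1 to 48.2 ± 6.35 CPM (adjusted p 0.000168) and the ATP-gated channel gene P2rx7 from 130.4 ± 5.82 to 91.4 ± 17.9 CPM (adjusted p 0.00317), and 5 genes of the list fell with library totals alone. In remission against control mice 1 gene of the list was higher and 1 lower, where 6.06% and 3.25% of all genes were. In chronic against control mice 2 were higher and 1 lower, where 9.57% and 5.17% of all genes were. The number higher in the chronic phase was 1 without control replicate 1 or chronic replicate 2 and 0 with library totals alone. Another ATP-gated channel gene, P2rx4, was higher than control in remission, at 115 ± 4.67 against 59.3 ± 10.4 CPM (adjusted p 0.000142), and in the chronic phase, at 91 ± 12.3 CPM (adjusted p 0.00517). Nlrp3 was lower than control in remission, at 58.6 ± 3.56 CPM (adjusted p 0.0178), lost when either control replicate 2 or 3, or either remission replicate 1 or 2, was left out, and in the chronic phase, at 51.6 ± 11.8 CPM (adjusted p 0.00178).

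Of 19 other ion channel genes of microglia, 8 rose and 1 fell in acute mice, where 23.7% of all genes rose and 20% fell. The share that changed in either direction was near the 43.7% of all genes. With library totals alone 3 rose and 7 fell. Leaving out control replicate 1 or 2 or acute replicate 1 brought the rises to 5, and leaving out control replicate 1, chronic replicate 1 or chronic replicate 3 brought the decreases to 2. The lysosomal chloride transporter gene Clcn7 rose from 30.9 ± 3.33 to 158 ± 14.8 CPM and stayed above control at 70.6 ± 4.76 CPM in remission (adjusted p 1.5e-05) and 85.4 ± 17.4 CPM in the chronic phase. The volume-regulated anion channel genes Lrrc8b and Lrrc8c rose from 4.09 ± 1.01 to 33.2 ± 5.73 CPM and from 5.08 ± 0.479 to 22.9 ± 2.42 CPM, and Lrrc8b was still at 9.67 ± 1.11 CPM in remission (adjusted p 0.00161). Clic1 rose from 41.5 ± 2.46 to 75 ± 5 CPM, a call that ended with library totals alone (adjusted p 0.138).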

How the data were processed

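Counts of reads per gene were deposited by the authors, without normalization, for 12 libraries of sorted spinal cord microglia. Per the labels' protocols, RNA was taken up with random hexamers and libraries were made with Nextera XT, which keeps no strand, and run as single reads on one flow cell. The submitters' processing notes name HISAT2, the build GRCm38, SAMtools 1.3.1, Picard 2.6.4 and HTSeq 0.6.1. The HISAT2 version, the HTSeq settings and the annotation release are not given in the sources used here, so how reads shared by overlapping genes were treated is unknown. The 12 single files equalled the columns of the merged table. GENCODE M21 gave symbols, positions and exon lengths for 48144 of 48526 IDs, and the 382 without a match held 0.02078% of counts. Depth set the precision, with 1266782 to 2496096 informative counts per library.

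The default expression filter of edgeR 4.0.16 left 12545 genes. All 12 libraries entered 1 model with a mean for each of the 4 groups and TMM factors. In R 4.3.3, 6 comparisons were tested by robust quasi-likelihood, and p-values were adjusted by Benjamini-Hochberg over the whole table. The SE is the log2 fold change divided by the root of the F statistic. Each result was repeated under 20 alternatives, which were DESeq2 1.42.0, limma 3.58.1 (voom), other scalings, no filter, the 2 groups alone, a block on the number in the title, and leaving out each library. The members and the lists of other genes were chosen with earlier results of these data known. Named genes followed a rule by p-value and level, namely all members, up to 6 other Kcn genes per comparison or any at 10 CPM or more, up to 4 per context list in acute against control mice and up to 3 in other comparisons, and the 3 nearest profiles. Some genes that the rule names are not reported here. Replicate numbers follow the order of the records and pair no mice. The labels call the mice of a group separate animals.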

Additional observations from a re-analysis of the deposited data

How the results depend on the processing

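Of the 25 member calls, 19 were made under all 20 alternatives and 6 were lost under at least 1, as given with those genes. Library totals alone shifted the median log2 fold change of all genes to -0.534 (acute), -0.235 (remission) and -0.371 (chronic) against control, to 0.306 and 0.189 in remission and chronic against acute mice and to -0.13 between chronic and remission mice. The share of higher calls went with it from 54.3 to 22.8%, 65.1 to 32.6%, 64.9 to 21.7%, 47.6 to 71.2%, 46.3 to 64.4% and 78.1 to 61.4%. Genes called between chronic and remission mice numbered 151, but 828 with no filter, 385 by DESeq2, 81 by limma-voom, 19 with those 2 groups alone and 18 to 282 leaving out a library. Without control replicate 2 the count in remission against control mice was 752 and not 1168 (range 752 to 1312), and in chronic against control mice 1225 and not 1848 (range 1225 to 1911), where library totals alone gave 3241. Members called between chronic and remission mice numbered 4 with no filter, 1 by DESeq2 and 0 to 1 leaving out a library. Members called between remission and control mice numbered 3 with library totals alone, with no filter and with the 2 groups alone, 2 by DESeq2 and by limma-voom, and 1 to 2 leaving out a library.

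Under the 20 alternatives, each change of sign among members was in a comparison not called. For Kcnk12 between chronic and remission mice the log2 fold change was -0.0084 with library totals alone, -0.5247 by limma-voom, -0.0014 with the replicate block and -0.44 to 0.66 leaving out a library. With library totals alone Kcnk13 was at -0.2482 in chronic and -0.0198 in remission mice, and Kcnk6 at -0.1426 in remission, against control. Leaving out a library, Kcnk6 ranged from -0.0276 to 0.2266 in remission, and Kcnj2 from -0.5889 to 0.0481 in chronic mice. Kcnq1ot1 in chronic mice was at 0.0015 with DESeq2 size factors, 0.0129 without the most abundant features, 0.0012 by DESeq2, 0.0034 by limma-voom, 0.0398 with the replicate block and -0.0934 to 0.1388 leaving out a library. Among other genes, whose alternatives were added after seeing the data, Trpm7 and Ano6 turned from called higher to -0.1562 and -0.0659 in acute mice with library totals alone. The causes were not tested.

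The number in the sample titles is not stated to mark a pairing and was not treated as one. The median correlation of deviations was 0.00664 over 28 pairs with the same number and 0.00049 over 26 pairs with different numbers, and 10 of 12 libraries correlated best with a library of their own number. The correlations ranged from -0.125 to 0.184 with the same number and from -0.0882 to 0.096 with different numbers. Most libraries carry number 1, and the number of such matches expected by chance was not computed. Whether libraries with the same number deviate together was not tested. With that number as a replicate block, 2402 and not 3610 genes were called between chronic and acute mice. All chronic libraries carry number 1 and acute replicates 1 and 2 carry number 2. The block is thus partly confounded with phase in this comparison. Depth limits Kcnk12 outside control mice and Kcnn4 outside acute mice, where a group held at most 47 counts. No test of single outlying libraries was run in these groups of 3 mice.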
